A study of Mus musculus with 34 samples.

Results

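Transcript levels of 9 genes that mark the oligodendrocyte lineage were examined in the brains of aged mice lacking the histone deacetylase HDAC1. The genes were Pdgfra, Cspg4, Vcan, Olig1, Olig2, Sox10, Gpr17, Bcas1 and Enpp6. They were chosen by name from the 23951 genes in the deposited tables, and all 9 were found. The series was designed to ask how HDAC1 deficiency alters gene expression in the aged hippocampus, with and without an Alzheimer's disease transgene. Hippocampal RNA was sequenced from 4 groups. Control mice carried floxed Hdac1 alleles without a recombinase (Hdac1f/f, n = 4). Hdac1 cKO mice carried the same alleles with Nestin-Cre (n = 5), in which a promoter active in neural progenitors drives the recombinase. 5XFAD mice carried Hdac1f/f and the 5XFAD transgenes, which encode mutated human proteins of the amyloid pathway (n = 6), and compound mice carried Hdac1f/f, Nestin-Cre and 5XFAD (n = 5). All 4 groups therefore shared the floxed alleles. The labels give 13 to 14 months of age for control and Hdac1 cKO mice and 13 months for both 5XFAD groups. GFAP+ nuclei, sorted after staining for an astrocyte protein, came from the cortex of 13-month-old control (n = 3) and Hdac1 cKO mice (n = 4). Whether HDAC1 is lost from the oligodendrocyte lineage itself is not stated in the sources used here.

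Oligodendrocytes, the cells that myelinate axons in the central nervous system, arise throughout life from precursor cells. Precursors carry the growth factor receptor PDGFRA and the proteoglycan NG2, encoded by Cspg4, and secrete the matrix proteoglycan versican, encoded by Vcan. The transcription factors OLIG1, OLIG2 and SOX10 are present through the whole lineage. Precursors that commit to differentiation pass through a short-lived stage marked by the receptor GPR17, by BCAS1 and by the phosphodiesterase ENPP6, before myelin genes such as Mbp reach their full level. HDAC1, acting together with HDAC2, is known to be needed for this differentiation step.

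The genes lie on separate chromosomes, apart from Olig1 and Olig2. On the mm9 assembly, Olig2 occupies chr16:91225795-91228922 and Olig1 chr16:91270014-91272184, both on the plus strand and 41.1 kb apart. Enpp6 occupies chr8:48072279-48180249 on the plus strand. The study was concerned with guanine-rich promoter elements, so the promoters of 4 members are shown here, 3 that hold a GC box and Enpp6, on which a result below turns. Promoter windows from 250 bases before to 50 after the gene start were taken from RefSeq (GRCm38.p6), which gave an entry for 5 of the 9 members. A GC box was searched as GGGCGG or its reverse complement CCGCCC, and matches are printed in capitals, 5′ to 3′ on the gene's own strand.
Cspg4 promoter: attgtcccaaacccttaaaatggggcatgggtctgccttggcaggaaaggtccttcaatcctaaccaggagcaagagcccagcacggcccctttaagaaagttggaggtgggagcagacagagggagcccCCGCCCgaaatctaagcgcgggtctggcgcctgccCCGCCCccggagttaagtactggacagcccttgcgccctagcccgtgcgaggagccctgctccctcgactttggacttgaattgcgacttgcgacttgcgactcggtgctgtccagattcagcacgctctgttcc
Vcan promoter: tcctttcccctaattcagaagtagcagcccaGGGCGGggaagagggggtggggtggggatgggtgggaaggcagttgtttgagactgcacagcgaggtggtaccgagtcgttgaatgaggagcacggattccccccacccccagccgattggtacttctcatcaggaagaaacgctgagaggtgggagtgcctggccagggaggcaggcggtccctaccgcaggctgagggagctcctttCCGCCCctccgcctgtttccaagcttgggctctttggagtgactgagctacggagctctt
Olig2 promoter: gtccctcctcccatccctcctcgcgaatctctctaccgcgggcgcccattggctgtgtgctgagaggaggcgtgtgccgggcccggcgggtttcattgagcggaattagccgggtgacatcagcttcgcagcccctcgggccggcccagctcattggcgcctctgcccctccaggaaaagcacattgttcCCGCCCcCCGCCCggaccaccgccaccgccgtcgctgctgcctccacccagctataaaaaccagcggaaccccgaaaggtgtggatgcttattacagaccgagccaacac
Enpp6 promoter: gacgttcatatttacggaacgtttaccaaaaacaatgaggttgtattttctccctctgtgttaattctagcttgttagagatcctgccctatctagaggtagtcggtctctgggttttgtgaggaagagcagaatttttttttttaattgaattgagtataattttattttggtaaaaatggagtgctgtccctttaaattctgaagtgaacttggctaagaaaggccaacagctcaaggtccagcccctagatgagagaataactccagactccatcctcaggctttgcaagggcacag
The Cspg4, Vcan and Olig2 windows each held 2 matches, and the Pdgfra and Enpp6 windows held none. Of 32851 promoter windows of the same length in the table, 35.7% held the motif. The GC content was 60% for Cspg4, 61% for Vcan, 65% for Olig2, 51% for Pdgfra and 40.3% for Enpp6, against a median of 52.7% over the table.

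Levels were deposited as FPKM, fragments scaled by transcript length and by the library's mapped fragments, and the read totals were not used here. The relative depth, judged from the steps between low values, ran from 0.7531 to 2.351 over the 20 hippocampal libraries, with control mouse 1 set to 1. Hdac1, the deleted gene, averaged 7.93 ± 2.20 FPKM (SD, n = 4) in control, 2.74 ± 0.279 (n = 5) in Hdac1 cKO, 8.23 ± 1.56 (n = 6) in 5XFAD and 1.92 ± 0.516 (n = 5) in compound hippocampi. No library of a Cre group reached the level of any library of the group without Cre. In GFAP+ nuclei the groups overlapped, with 9.91 to 22.3 FPKM in control and 5.80 to 11.5 FPKM in the libraries labelled Hdac1 cKO. The summed FPKM of 8 choroid plexus markers ran from 591 to 20474 in control, 59.8 to 1634 in Hdac1 cKO, 56.5 to 8006 in 5XFAD and 62.3 to 14067 in compound hippocampi. The summed FPKM of 6 microglia markers was 78.3 to 106 in control, 86.8 to 106 in Hdac1 cKO, 131 to 169 in 5XFAD and 134 to 258 in compound hippocampi, and none of the 6 was at 0 in any hippocampal library. Control mouse 1 stood apart from the other 3 control mice, with a choroid plexus sum of 591 against 13103 to 20474 FPKM, and it had the lowest value of all 20 hippocampal libraries for Olig1, Sox10, Gpr17 and Bcas1 and the highest for Olig2, so results that rest on it are given with and without it. In these bulk samples, fewer cells of a type and less RNA per cell cannot be told apart.

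Of the 3 genes of the precursor surface and matrix, Pdgfra measured 3.62, 3.00, 2.01 and 4.22 FPKM in control mice and ran from 2.46 to 3.94 FPKM in Hdac1 cKO mice. It ran from 1.85 through a median of 3.35 to 3.96 FPKM in 5XFAD mice and from 2.62 to 4.10 FPKM in compound mice. All 4 groups overlapped, with means between 3.14 and 3.31 FPKM. Cspg4 averaged 1.56 ± 0.585 FPKM (SD, n = 4) in control, 1.45 ± 0.0694 (n = 5) in Hdac1 cKO, 1.90 ± 0.238 (n = 6) in 5XFAD and 1.43 ± 0.642 (n = 5) in compound mice. The Hdac1 cKO values, from 1.40 to 1.57 FPKM, all lay below the 5XFAD values, from 1.68 to 2.25 FPKM, and the other pairs of groups overlapped. How often this occurs over all genes was not counted. The lowest of its 20 values, 0.467 FPKM, came from compound mouse 3. Cspg4 is also made by pericytes, whose 8 markers summed to 49.9 to 75.6 FPKM in control, 51.0 to 67.1 in Hdac1 cKO, 57.9 to 82.0 in 5XFAD and 51.2 to 63.8 in compound hippocampi, with at most 1 of the 8 at 0. Vcan averaged 1.70 ± 0.152 FPKM (n = 4) in control, 1.51 ± 0.533 (n = 5) in Hdac1 cKO, 1.31 ± 0.383 (n = 6) in 5XFAD and 1.55 ± 0.485 (n = 5) in compound mice. Fibroblasts also make Pdgfra and Vcan, and 7 fibroblast markers summed to 63.8 to 126 FPKM in control, 42.1 to 70.5 in Hdac1 cKO, 46.1 to 114 in 5XFAD and 48.6 to 102 in compound hippocampi.

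The lineage transcription factors overlapped between all groups, with the highest single values in mice carrying 5XFAD for Olig1 and Sox10. Olig1 measured 25.1, 34.8, 35.7 and 34.0 FPKM in the control mice and 33.4, 35.1, 29.7, 36.7 and 29.4 FPKM in the Hdac1 cKO mice. It ran from 33.9 through a median of 37.6 to 43.5 FPKM in 5XFAD mice and measured 37.8, 35.6, 36.0, 46.4 and 41.0 FPKM in compound mice. Control mouse 1 lay apart from the other 3 control mice, and the 2 groups with 5XFAD reached higher than the 2 without while still overlapping with them. Olig2 averaged 5.56 ± 2.39 FPKM (SD, n = 4) in control, 5.28 ± 0.395 (n = 5) in Hdac1 cKO, 5.16 ± 0.848 (n = 6) in 5XFAD and 5.39 ± 1.66 (n = 5) in compound mice, and the widest spread was among the controls, from 3.07 to 8.51 FPKM. Sox10 measured 7.82, 8.76, 9.71 and 10.7 FPKM in control mice and 9.83, 9.21, 12.1, 11.3 and 10.2 FPKM in Hdac1 cKO mice. It ran from 8.50 through a median of 12.6 to 13.8 FPKM in 5XFAD mice and measured 9.49, 10.9, 9.08, 16.7 and 11.7 FPKM in compound mice. The highest Sox10 value of the 20, like the highest values of Olig1, Gpr17 and Bcas1, came from compound mouse 4.

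The genes of committed precursors varied widely between mice of one group. Gpr17, a receptor of the transient committed stage, measured 0.430, 1.60, 0.698 and 1.47 FPKM in control mice and 1.02, 1.30, 1.82, 0.692 and 1.65 FPKM in Hdac1 cKO mice. It ran from 0.970 through a median of 1.34 to 1.62 FPKM in 5XFAD mice and measured 2.06, 1.19, 1.06, 2.61 and 2.42 FPKM in compound mice. Of the 5 compound mice, 3 lay above every other hippocampal library. Bcas1, a marker of newly forming oligodendrocytes, measured 26.6, 38.9, 36.4 and 33.0 FPKM in control mice and 29.1, 26.9, 31.8, 27.6 and 27.7 FPKM in Hdac1 cKO mice. It ran from 30.7 through a median of 37.4 to 43.1 FPKM in 5XFAD mice and measured 38.4, 27.0, 30.8, 52.8 and 39.0 FPKM in compound mice. Enpp6, a choline phosphodiesterase of newly formed oligodendrocytes, measured 0.965, 2.40, 2.13 and 1.39 FPKM in control mice and 2.07, 1.13, 0.778, 1.15 and 0.319 FPKM in Hdac1 cKO mice. It ran from 0.925 through a median of 2.59 to 3.68 FPKM in 5XFAD mice and measured 2.59, 2.90, 1.85, 2.78 and 0.791 FPKM in compound mice. Of the 5 Hdac1 cKO mice, 4 lay below the control median of 1.76 FPKM, but every pair of groups overlapped. Over the 9 genes and all pairs of hippocampal groups, the one pair without overlap was Hdac1 cKO and 5XFAD mice for Cspg4, a pair that no fit compared. The share of all genes without overlap between those groups was not counted, so this separation is given as a description only.

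**Figure D1:**
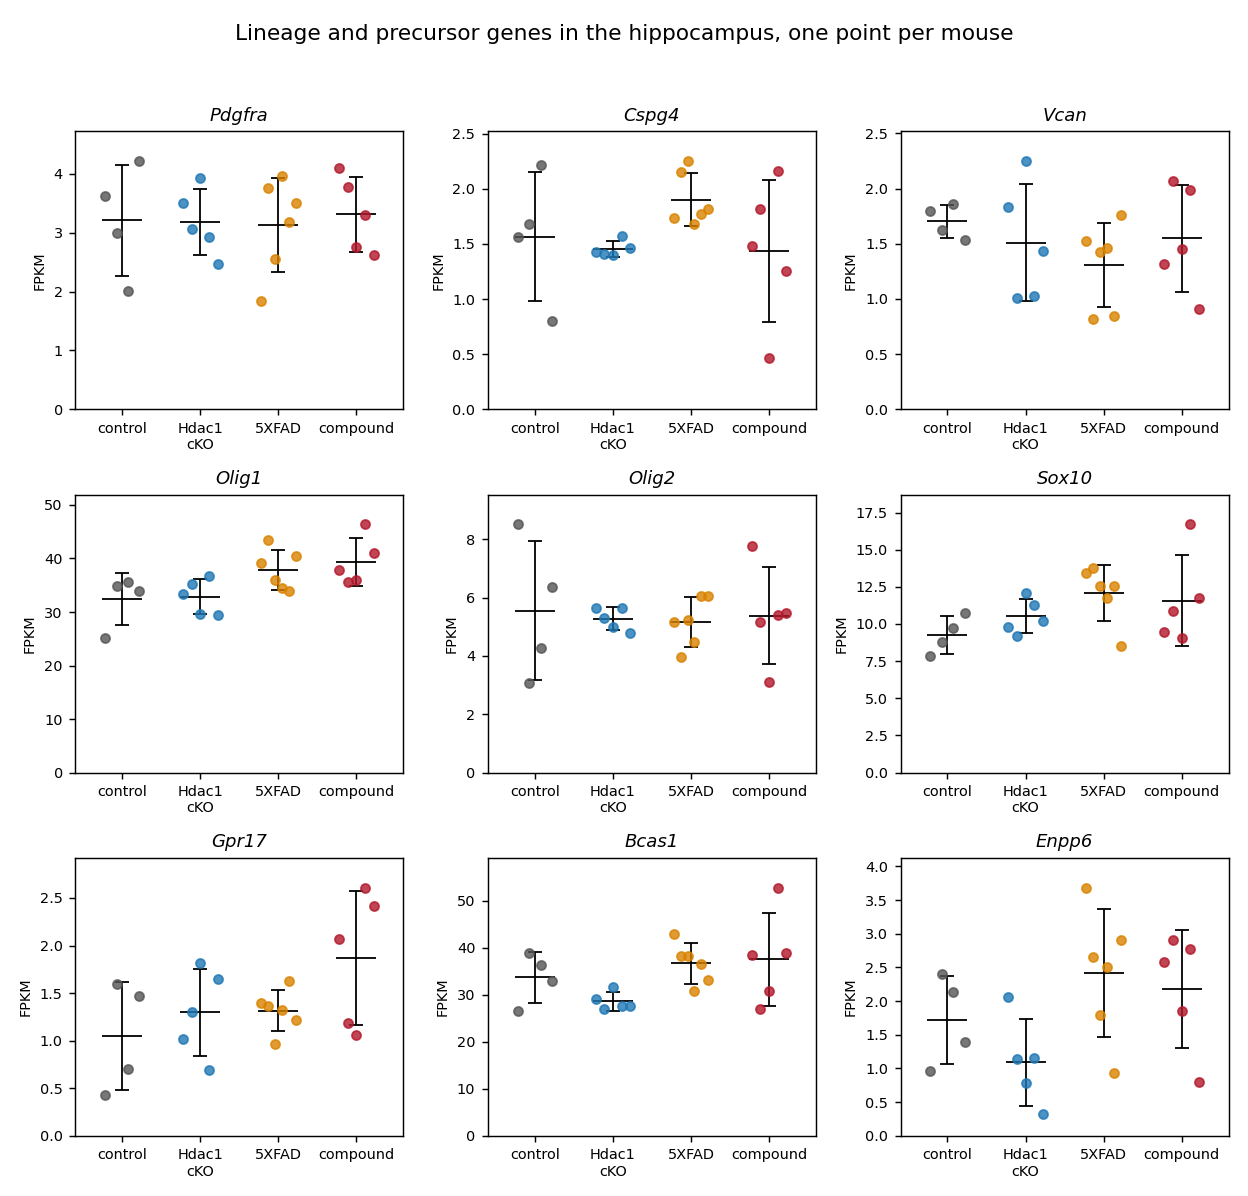
Level of each gene in FPKM (vertical axis, from 0) by hippocampal group (horizontal axis), with one point per mouse and a bar for the mean ± SD. The groups overlap in every panel except for Hdac1 cKO and 5XFAD mice in that of Cspg4, and the Gpr17 values reach 2.61 FPKM in compound mice against 1.60 FPKM in control mice.

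The first comparison asked what loss of Hdac1 did to the lineage genes. None of the 9 was called in Hdac1 cKO against control hippocampi, where a call needed both a 1.5-fold difference and a limma p under 0.05 before adjustment, and 3.36% of the 14265 genes tested were called. None passed a Benjamini-Hochberg adjusted p of 0.05, as 0.154% of genes did, and none had an unadjusted p under 0.05. The median log2 fold change of the 9, on the log2(FPKM + 1) scale used throughout, was 0.0080, against -0.00068 over all genes tested. Enpp6 and Bcas1 had the largest differences, a log2 fold change of -0.40 (SE 0.25, limma adjusted p = 0.565) and of -0.22 (SE 0.11, adjusted p = 0.486). The Enpp6 value was -0.73 with a pseudocount of 0.1, -0.66 from the ratio of mean FPKM and -0.25 without Hdac1 cKO mouse 5. The replicate block gave the same -0.25, since no control mouse carried the number 5 and the block took Hdac1 cKO mouse 5 out of the difference. Without control mouse 1, Bcas1 had -0.33 with an unadjusted limma p of 0.0067 (adjusted p = 0.165) and Enpp6 had -0.55 (adjusted p = 0.409), and without Hdac1 cKO mouse 1 Enpp6 had -0.55 with an unadjusted limma p of 0.038 (adjusted p = 0.388). The 95% interval lay within a 1.5-fold change in either direction for 7 of the 9 genes, the exceptions being Enpp6 and Gpr17. Adding 1 to each value compresses low genes, and with a pseudocount of 0.1 the intervals of Cspg4 and Vcan also left that range, so that 5 of the 9 lay within it. Compound against 5XFAD hippocampi asked the same question on the 5XFAD background, and again none of the 9 was called, against 1.28% of genes by the fold change rule and 0.00698% by adjusted p. Here Cspg4 had a log2 fold change of -0.29 (SE 0.19) and Gpr17 one of 0.28 (SE 0.18), with a median over the 9 of 0.023. Cspg4 was at -0.51 with a pseudocount of 0.1 and -0.12 without compound mouse 3, and Gpr17 at 0.51 from the ratio of mean FPKM and 0.18 without compound mouse 4.

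Averaged over both backgrounds, Hdac1 loss left 8 of the 9 intervals within a 1.5-fold change, and Enpp6 was the exception with an interval of -0.64 to 0.13 on the log2 scale. With a pseudocount of 0.1, 6 of the 9 lay within it, without Cspg4 and Gpr17. The calls were 0 of 9 by either rule, against 1.33% and 0.0278% of genes, and no member had an unadjusted p under 0.05. The log2 fold changes ran from -0.25 for Enpp6 to 0.23 for Gpr17. Enpp6 was at -0.15 without compound mouse 5, -0.14 with the replicate block and -0.44 with a pseudocount of 0.1. Gpr17 was at 0.15 without control mouse 1 and 0.39 with a pseudocount of 0.1. The choroid plexus markers moved with this contrast, with 8 of 8 called lower, and their part in the lineage genes' values was not tested.

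The second comparison asked how mice with the 5XFAD transgenes differed from mice without them. Mice with 5XFAD were labelled 13 months old and mice without it 13 to 14, and the 2 sets are listed apart in the series. In every contrast of mice with 5XFAD against mice without it, age or batch cannot be told apart from the transgenes. In 5XFAD against control hippocampi, 0 of 9 were called by either rule, against 2.95% and 0.708% of genes. Sox10 alone had an unadjusted p under 0.05 in limma, with a log2 fold change of 0.35 (SE 0.14, adjusted p = 0.398), and 0.28 (adjusted p = 0.593) without control mouse 1, where no member had one. In compound against control hippocampi, 0 of 9 were called by either rule, against 4.24% and 0.662% of genes. Olig1 alone had an unadjusted p under 0.05 there, with a log2 fold change of 0.28 (SE 0.12, adjusted p = 0.457), and 0.17 (adjusted p = 0.681) without control mouse 1, where again no member had one. Gpr17 had the largest difference, 0.49 (SE 0.25, adjusted p = 0.522), and it reached the call when control mouse 2 or compound mouse 3 was left out, at 0.62 and 0.60. It was 0.85 with a pseudocount of 0.1, 0.83 from the ratio of mean FPKM and as low as 0.33 without control mouse 1. These 2 comparisons and Hdac1 cKO against control used the same 4 control mice.

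Enpp6 was the only member called in any comparison. It was higher in compound than in Hdac1 cKO hippocampi, with a log2 fold change of 0.61 (SE 0.26, 95% interval 0.053 to 1.16, limma adjusted p = 0.421). In this comparison 1 of 9 members was called by the fold change rule, against 3.55% of genes, and 0 of 9 by adjusted p, against 1.49%. Of the 5 compound mice, 4 lay above the Hdac1 cKO median of 1.13 FPKM and 1 below it. The call was lost when Hdac1 cKO mouse 3 or 5, or compound mouse 1, 2 or 4, was left out, with values from 0.45 to 0.56. The size also depended on the scale, at 1.01 with a pseudocount of 0.1 and 1.00 from the ratio of mean FPKM, and it was 0.80 without compound mouse 5. Olig1 and Bcas1 also had an unadjusted p under 0.05 here, with log2 fold changes of 0.25 (SE 0.10, adjusted p = 0.378) and 0.35 (SE 0.15, adjusted p = 0.420), below the fold required for a call.

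Averaged over both Hdac1 genotypes, 5XFAD gave 4 members with an unadjusted p under 0.05, all higher, and no call by either rule, against 2.22% and 2.20% of genes. Olig1 had a log2 fold change of 0.24 (SE 0.076, limma adjusted p = 0.137), the smallest adjusted p of any member in any comparison. Sox10 had one of 0.22 (SE 0.10, adjusted p = 0.391), Bcas1 one of 0.24 (SE 0.099, adjusted p = 0.325) and Enpp6 one of 0.46 (SE 0.19, adjusted p = 0.301). Without control mouse 1, 1 of these 4 kept an unadjusted p under 0.05, Olig1 at 0.18 (adjusted p = 0.303), while Sox10 was at 0.19, Bcas1 at 0.18 and Enpp6 at 0.38. In the fit with every mouse, Gpr17 had a log2 fold change of 0.26 (SE 0.14, adjusted p = 0.494), and Pdgfra, Cspg4, Vcan and Olig2 had values between -0.11 and 0.073. The median over the 9 was 0.22, against -0.013 over all genes tested. The intervals of 8 members lay within a 1.5-fold change, and that of Enpp6 reached from 0.072 to 0.84, while with a pseudocount of 0.1 those of Vcan and Gpr17 also left that range. At that pseudocount Enpp6 was at 0.72 and reached the call (limma adjusted p = 0.329), and Gpr17 was at 0.46. Microglia markers moved with this contrast, with 3 of 6 called higher (Aif1, Csf1r and Cx3cr1), and so did the astrocyte markers Gfap and Aqp4 among 7, and the part of either in the lineage genes' values was not tested.

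**Figure D2:**
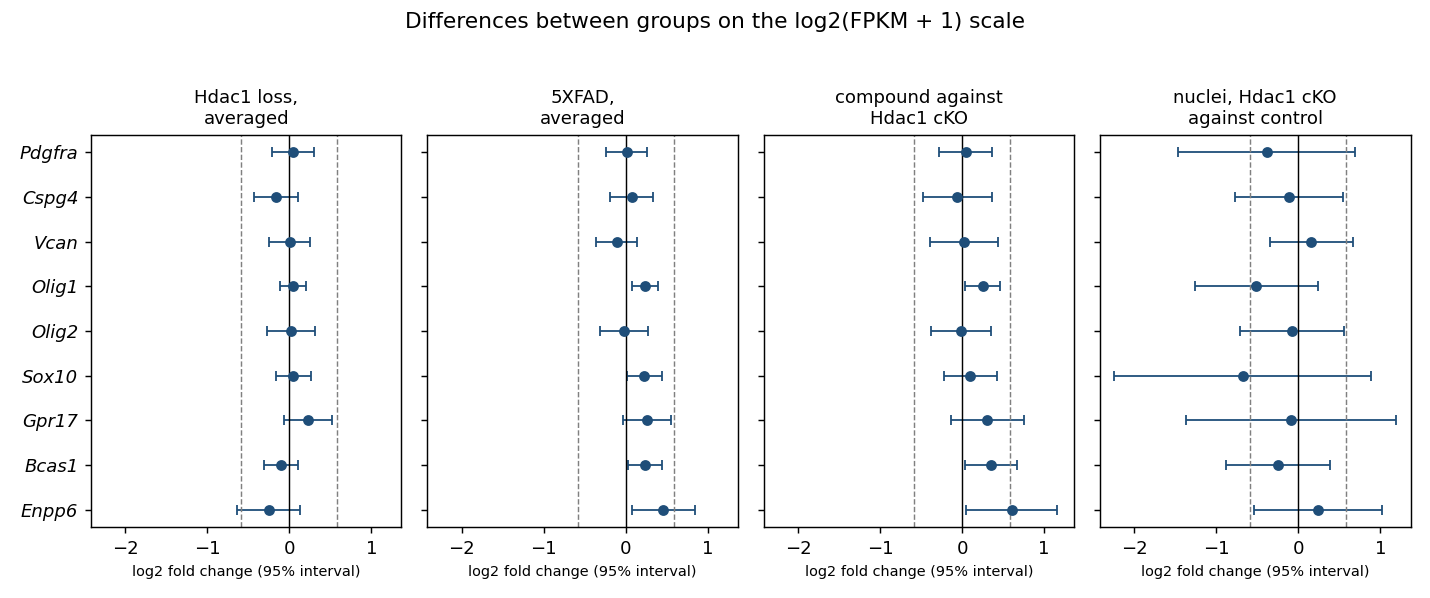
Log2 fold change (horizontal axis, log2 of FPKM + 1) with its 95% interval for each gene (vertical axis) in 4 comparisons, with dashed lines at a 1.5-fold change. The Enpp6 point in compound against Hdac1 cKO, at 0.61, lies past the dashed line and its interval starts at 0.053, and the intervals in nuclei are the widest, reaching -2.25 for Sox10.

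Whether the effect of Hdac1 loss differed with the 5XFAD background was tested by an interaction term. None of the 9 members was called, against 4.07% of genes by the fold change rule and 0.00% by adjusted p, and none had an unadjusted p under 0.05. The log2 values of the interaction ran from -0.26 for Cspg4 to 0.30 for Enpp6. Cspg4 was at -0.090 without compound mouse 3 and -0.49 with a pseudocount of 0.1. Enpp6 was at 0.15 without 5XFAD mouse 5, 0.49 without compound mouse 5 and 0.57 with a pseudocount of 0.1. Only Olig1 and Pdgfra had intervals within a 1.5-fold change, and only Olig1 with a pseudocount of 0.1.

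The other genes of the lineage gave few calls. Among 12 myelin genes, no gene was called in Hdac1 cKO, 5XFAD or compound against control, against 3.36%, 2.95% and 4.24% of all genes, and Cldn11, which encodes a tight junction protein of myelin, rose in compound against Hdac1 cKO (log2 fold change 0.66, SE 0.15, limma adjusted p = 0.0432). The myelin genes summed to 2329 FPKM in compound mouse 4 against 1441 to 1694 FPKM in the other compound mice. Microglia sums were 134 to 258 FPKM in compound and 86.8 to 106 FPKM in Hdac1 cKO mice. The part of either in the Cldn11 value was not tested. Cldn11 averaged 87.0 ± 7.03 FPKM (SD, n = 4) in control, 79.7 ± 11.4 (n = 5) in Hdac1 cKO, 107 ± 14.7 (n = 6) in 5XFAD and 128 ± 31.8 (n = 5) in compound mice, and it passed the adjusted p with 5XFAD averaged over both genotypes (0.47, SE 0.096, adjusted p = 0.00545). The myelin list's median there was 0.13. Mbp, the myelin basic protein gene, averaged 651 ± 29.4 FPKM in control and 605 ± 40.3 in Hdac1 cKO mice.

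Of 11 other precursor genes, 8 to 11 passed the filter on low values depending on the comparison. C1ql1, which encodes a secreted complement-like protein of precursors, was called higher in compound than in control mice (0.59, SE 0.17, adjusted p = 0.200), at 5.13 ± 1.11 FPKM (SD, n = 5) against 3.03 ± 0.350 (n = 4). Cacng4, an AMPA receptor auxiliary subunit gene, averaged 0.814 ± 0.621 FPKM (SD, n = 6) in 5XFAD and 0.154 ± 0.233 (n = 5) in compound mice, 3 of which were listed at 0. In hippocampus it passed the filter only in the pairwise comparisons with 5XFAD mice, where it was highest, so its call there (-0.60, SE 0.25, adjusted p = 0.734) had been selected for by the filter and is given as a description. Of 9 other genes of committed precursors, 7 were tested in hippocampus and 8 in nuclei, and none was called, where between 1.28% and 4.24% of all genes were, so that a count of 0 is near the background for a list of this size. Among 16 signals and receptors that act on the lineage, Igf1, a growth factor that promotes oligodendrocyte survival and is also made by microglia, rose with 5XFAD. It averaged 2.14 ± 0.659 FPKM (n = 4) in control, 2.18 ± 0.694 (n = 5) in Hdac1 cKO, 5.67 ± 1.86 (n = 6) in 5XFAD and 6.98 ± 1.96 (n = 5) in compound mice. The averaged log2 fold change was 1.19 (SE 0.16, limma adjusted p = 4.56e-05), and the microglia sums given above moved with it. Hes5, a Notch target, was called lower in compound mice than in control (-0.80, SE 0.35, adjusted p = 0.451) and Hdac1 cKO mice (-0.79, SE 0.30, adjusted p = 0.371).

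Between mice of one group, the measured hippocampal levels of the 9 genes had mostly weak pairwise correlations. The part of noise at low levels in this was not tested. After each group's mean was subtracted, the 36 pairs of members had a median Pearson's r of 0.081 over the 20 hippocampal libraries, and 23 of the 36 were above 0. The highest value, 0.657, was between Sox10 and Bcas1, and the lowest, -0.298, between Pdgfra and Bcas1. With the mean of the 12 myelin genes, r was highest for Bcas1, at 0.732, followed by Sox10, then 0.439 for Cspg4, and ran from -0.120 for Pdgfra to 0.333 for Olig1 among the other 6. These points share their libraries, and r with relative depth was 0.727 for Gpr17, 0.545 for Bcas1 and 0.443 for Olig1, whose part in the values was not tested. Compound mouse 4 had the highest Olig1, Sox10, Gpr17 and Bcas1 values of the 20 libraries and the highest myelin sum. No r was computed without that mouse. Among 12994 candidate genes, those most like 8 of the members were Srsf9 for Pdgfra (r = 0.828), Pigz for Cspg4 (0.897), Ifit2 for Vcan (0.839), Fam35a for Olig2 (0.806), Cacna2d2 for Sox10 (0.877), Scube1 for Gpr17 (0.862), Trip6 for Bcas1 (0.806) and Mir1187 for Enpp6 (0.790). The myelin gene Mobp was the second most like Bcas1, at 0.795. Each of these was picked from the top of 12994 values over 20 libraries. How high the top values run for unrelated genes was not tested, so these likenesses are given as descriptions.

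In GFAP+ nuclei, the 9 genes spread widely between libraries of one group. None of the 9 was called in libraries labelled Hdac1 cKO against control, against 2.58% of 15070 genes by the fold change rule and 0.0133% by adjusted p, and none had an unadjusted p under 0.05 in limma. The median log2 fold change was -0.11, against -0.0065 over all genes tested. Its sign was not stable when 1 library was left out, from -0.45 without control nuclei 1 to 0.089 without Hdac1 cKO nuclei 2. The replicate block gave the same 0.089, since no control library used carried the number 2 and the block took Hdac1 cKO nuclei 2 out of the difference. Hdac1 itself was called in this comparison (-0.70, SE 0.28, adjusted p = 0.984). Sox10 measured 10.4, 28.3 and 21.6 FPKM in control nuclei 1, 3 and 4, and 4.39, 7.42, 26.1 and 17.2 FPKM in Hdac1 cKO nuclei 1 to 4. Its log2 fold change was -0.68 (SE 0.65, adjusted p = 0.984), and the interval ran from -2.25 to 0.89. Leaving out 1 library gave values from -1.07 without control nuclei 1 to -0.29 without Hdac1 cKO nuclei 1. Olig1 measured 50.6, 96.9 and 78.7 FPKM in control nuclei and 34.0, 36.8, 77.9 and 67.3 FPKM in Hdac1 cKO nuclei. Its log2 fold change was -0.51 (SE 0.33, adjusted p = 0.984), and it reached the call without Hdac1 cKO nuclei 3, at -0.72.

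Pdgfra measured 7.82, 12.5 and 7.14 FPKM in control nuclei and 3.71, 2.99, 13.2 and 11.2 FPKM in Hdac1 cKO nuclei. Gpr17 measured 2.37, 9.32 and 5.78 FPKM in control nuclei and 1.90, 2.90, 9.21 and 8.94 FPKM in Hdac1 cKO nuclei. The same libraries were low for both genes among the cKO samples, and the groups overlapped for all 9 genes. No member had an interval within a 1.5-fold change in nuclei, so a difference of that size was not excluded for any of the 9. Control nuclei 3 had the highest value of 5 members (Cspg4, Olig1, Sox10, Gpr17 and Bcas1) and Hdac1 cKO nuclei 3 that of the other 4. Hdac1 cKO nuclei 2 had the lowest value of 4 members and Hdac1 cKO nuclei 1 that of 3.

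**Figure D3:**
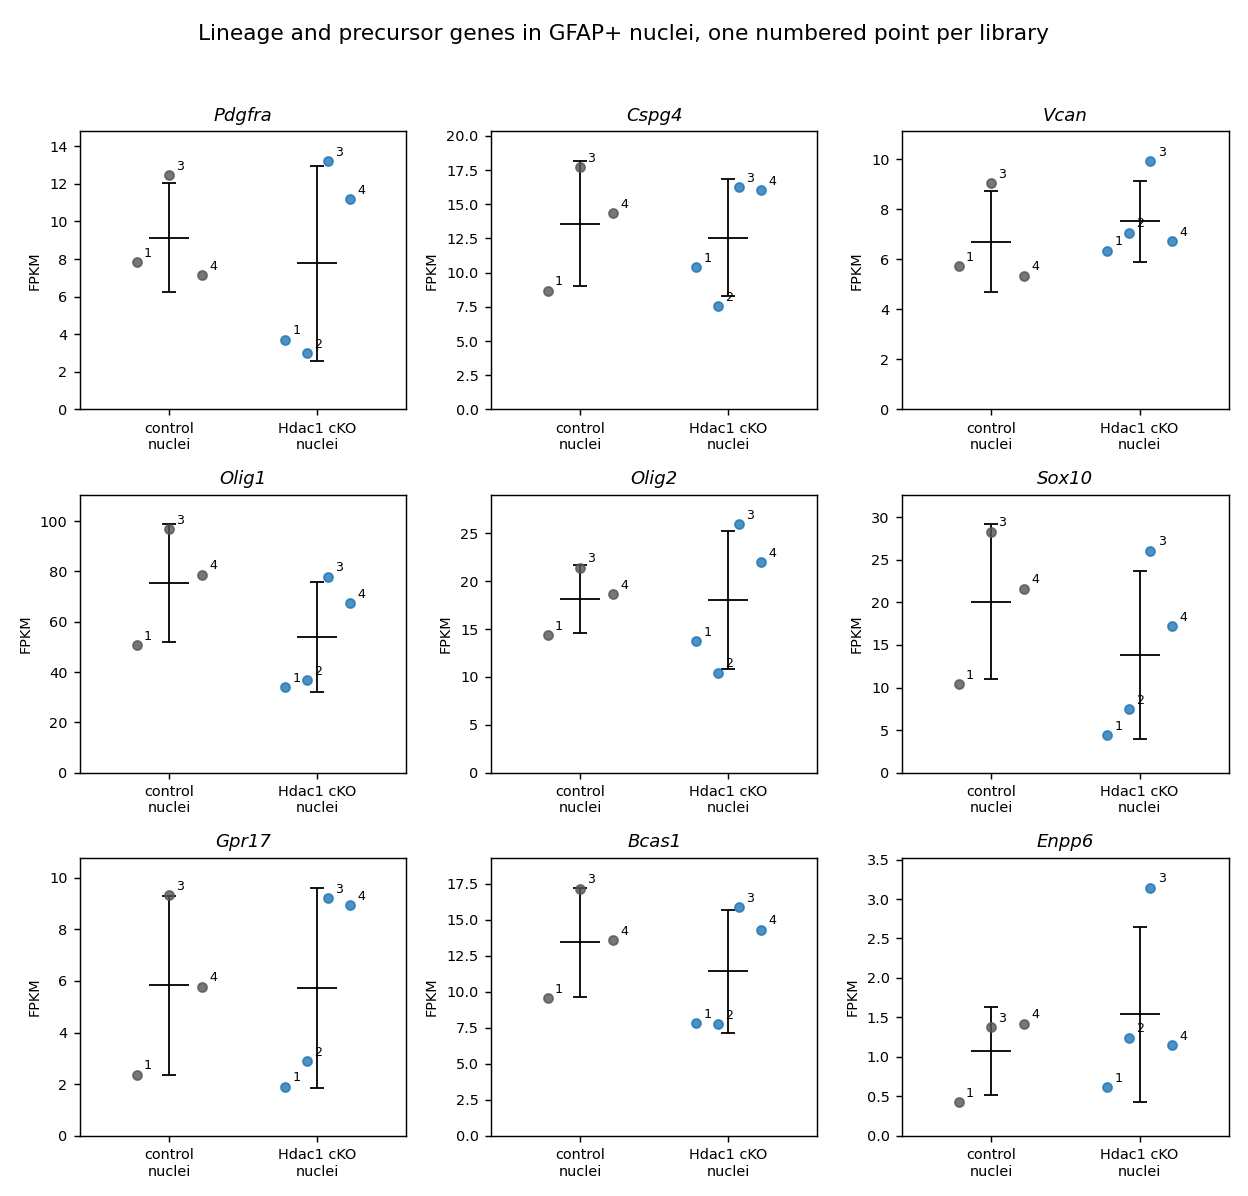
Level of each gene in FPKM (vertical axis, from 0) in GFAP+ nuclei of control and Hdac1 cKO mice (horizontal axis), with one point per library numbered by replicate and a bar for the mean ± SD. Both libraries numbered 3 are among the 3 highest values of every panel, at 28.3 and 26.1 FPKM for Sox10 but far apart for Enpp6, at 1.37 and 3.14 FPKM.

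The summed level of the 9 genes was 110, 214 and 166 FPKM in control nuclei 1, 3 and 4, and 82.9, 84.2, 198 and 165 FPKM in Hdac1 cKO nuclei 1 to 4. The 12 myelin genes summed to 707, 1377 and 970 FPKM and to 492, 610, 1263 and 1236 FPKM in the same libraries. Both sums therefore had their 3 lowest values in control nuclei 1 and Hdac1 cKO nuclei 1 and 2. The 6 microglia markers were lowest in the same 3 libraries, summing to 26.4, 43.9 and 31.7 FPKM in control and 13.8, 23.1, 37.0 and 45.5 FPKM in Hdac1 cKO nuclei. The 8 pericyte markers summed to 297, 447 and 355 FPKM in control and 318, 274, 333 and 375 FPKM in Hdac1 cKO nuclei, and the 7 fibroblast markers to 45.1, 69.4 and 60.5 FPKM and to 39.7, 38.7, 50.9 and 69.2 FPKM. Both of these sums were lowest in the same 3 libraries too. The 7 astrocyte markers, which the sort selected for, summed to 2650 to 3236 FPKM in control and 2857 to 3258 FPKM in Hdac1 cKO nuclei. The relative depth of these libraries ran from 0.8687 to 1.26. The part of other cell types in the members' values was not tested.

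**Figure D4:**
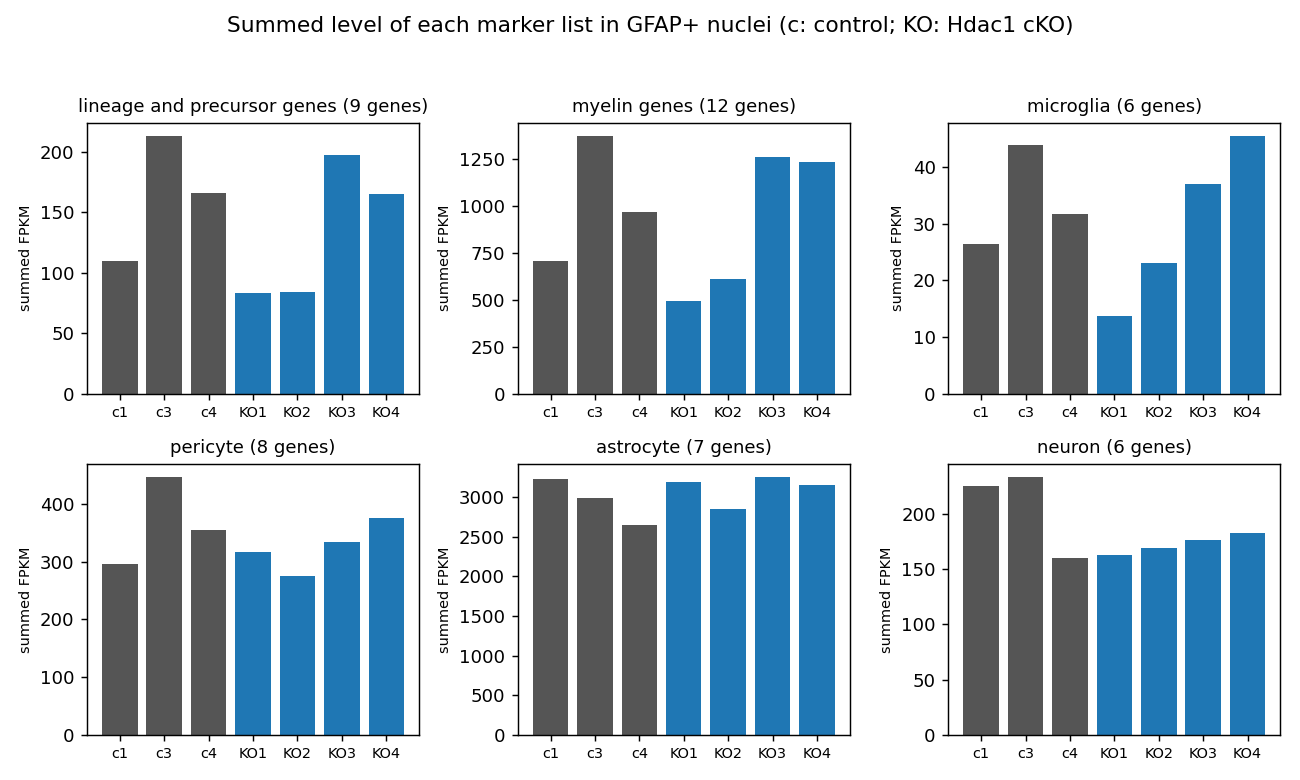
Summed FPKM (vertical axis, from 0) of 6 marker lists in each GFAP+ nuclei library (horizontal axis), with control libraries in grey and Hdac1 cKO libraries in blue. The sums of the 9 lineage genes run from 82.9 to 214 FPKM and are lowest in the same 3 libraries as the myelin, microglia and pericyte sums, while the astrocyte sums stay between 2650 and 3258 FPKM.

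Of the related lists in nuclei, the only call was Nkx6-2, a homeobox gene of oligodendrocytes. It measured 41.4, 75.7 and 43.7 FPKM in control nuclei and 20.03, 18.5, 25.1 and 30.5 FPKM in Hdac1 cKO nuclei, which did not overlap. Its log2 fold change was -1.12 (SE 0.24, limma adjusted p = 0.978), and it was 1 of the 12 other lineage transcription factors tested, where 2.58% of all genes were called. The myelin list had a median of -0.28 without a call.

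The levels in control nuclei and control hippocampus are given side by side, since tissue, compartment and library method all differed. Pdgfra averaged 9.14 ± 2.90 FPKM (SD, n = 3) in nuclei and 3.21 ± 0.945 (n = 4) in hippocampus. Cspg4 averaged 13.6 ± 4.57 and 1.56 ± 0.585 FPKM, Olig1 75.4 ± 23.3 and 32.4 ± 4.91 FPKM, and Olig2 18.1 ± 3.54 and 5.56 ± 2.39 FPKM. Bcas1 averaged 13.4 ± 3.80 FPKM in nuclei and 33.7 ± 5.35 FPKM in hippocampus, and Enpp6 1.07 ± 0.561 and 1.72 ± 0.660 FPKM. Each of the 9 transcripts was present in each library of nuclei sorted for GFAP, at 0.425 FPKM or more. Markers of cells that also make Cspg4, Pdgfra or Vcan were present there as well. Of the pericyte genes, Pdgfrb averaged 87.6 ± 18.7 FPKM in control nuclei against 1.19 ± 0.540 FPKM in control hippocampus, and Notch3 7.73 ± 0.933 against 0.390 ± 0.105 FPKM. The fibroblast gene Col1a1 averaged 15.9 ± 0.944 against 0.184 ± 0.0731 FPKM, while Dcn averaged 8.41 ± 0.938 against 56.4 ± 6.29 FPKM. The astrocyte genes Slc1a3 and Gja1 averaged 831 ± 26.8 and 422 ± 88.9 FPKM there, while the neuronal gene Rbfox3 was at 16.0 ± 0.586 FPKM against 151 ± 7.83 FPKM in hippocampus.

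**Figure D5:**
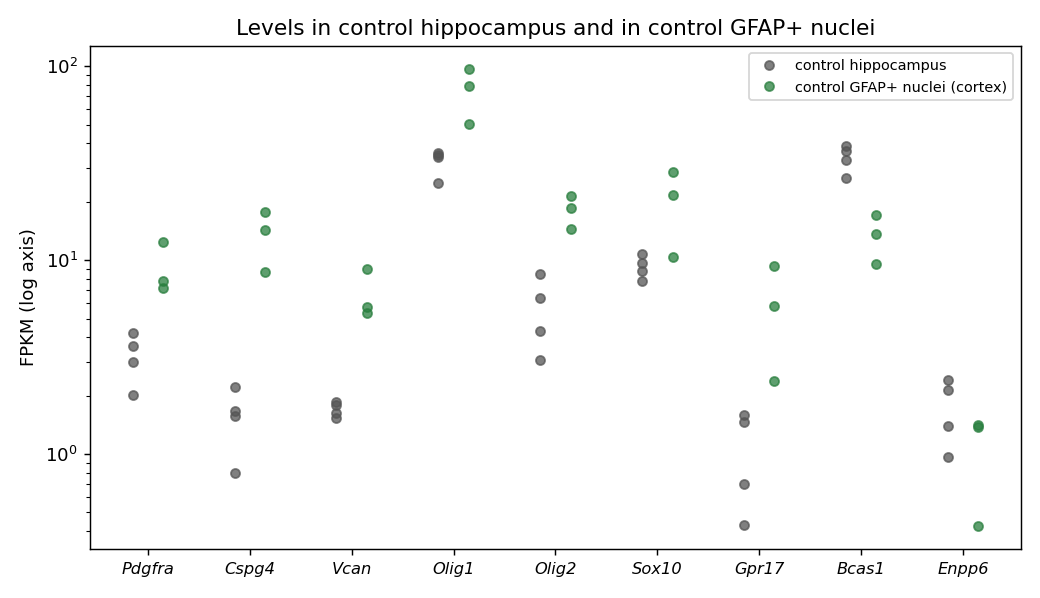
Level of each gene (vertical axis, FPKM on a log axis) in control hippocampus (grey, 4 mice) and control GFAP+ nuclei (green, 3 libraries), with one point per library and the genes along the horizontal axis. Bcas1 lies lower in nuclei (mean 13.4 FPKM) than in hippocampus (33.7 FPKM), and Cspg4 higher (13.6 against 1.56 FPKM).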

How the data were processed

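Deposited FPKM values of 23951 genes were used for 27 samples. Per the labels and the study's methods, the authors built hippocampal libraries from total RNA by 3′ digital gene expression, aligned reads to mm9 and computed FPKM with Cufflinks 2.0.0. GFAP+ nuclei were sorted from cortex and amplified from full-length transcripts, and how their FPKM were made is not stated separately. Dividing 3′-end reads by transcript length lowers long genes, so levels were compared between groups and not between genes. No file was used for 1 control nuclei sample or for the 6 ChIP-seq samples, which were not analysed here. Genes averaging 0.5 FPKM or more in the samples fitted were tested with limma 3.58.1 (trend and robust, R 4.3.3) on log2(FPKM + 1), which understates changes of low genes. P-values were adjusted by Benjamini-Hochberg over all genes tested, and a call, after the study's rule, needed a 1.5-fold difference together with p under 0.05 before adjustment. The pairwise fits used the 2 groups compared, and the interaction and averaged contrasts all 20 hippocampal samples. The code was tested on simulated data. All 9 members were tested in every comparison and are described with each related-list gene called (at most 4 a list and comparison) and the genes most like each member by Pearson's r among genes averaging 1 FPKM or more. Some list genes are named for context outside this rule. Some items that the rule would name are not reported here. Members and lists were chosen with earlier results of these data known. Depth was known only as a ratio between libraries, so no counting interval is given. Alternatives were a pseudocount of 0.1, other filters, quantile and median scaling, plain limma, a replicate block, fold changes from mean FPKM, one fit of all hippocampal groups and leaving out each sample. Replicates are separate mice, per the study's methods. Descriptions used Python 3.11.15.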

Additional observations from a re-analysis of the deposited data

Results flagged for a closer look

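Olig1 in control hippocampus mouse 1 lay below the other control mice by more than Dixon's test allows at the 95% level, at 25.1 FPKM against 34.0 to 35.7 FPKM. It was 1 of 45 groups of 4 to 6 samples tested, and chance gives about 1 in 20. This library also had the lowest value of all 20 hippocampal libraries for Sox10, Gpr17 and Bcas1, the highest for Olig2, a choroid plexus sum of 591 FPKM against 13103 to 20474 in the other 3 control mice, and the lowest relative depth of the 4, which was set to 1 and ran from 1.056 to 2.19 in the others. The part of these in the Olig1 value was not tested. Without this mouse, the Olig1 log2 fold change was 0.11 in 5XFAD against control and 0.17 in compound against control.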

How the results depend on the processing

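The members' median log2 fold change moved by less than 1 SD of its spread between mice under every alternative run. Its sign nevertheless turned on leaving out 1 sample in Hdac1 cKO against control, compound against 5XFAD, the interaction, averaged Hdac1 loss and nuclei, with the ratio of means in Hdac1 cKO against control, and with the block in nuclei. Every sign change given here was in a difference not called under either setting. In Hdac1 cKO against control, quantile normalization gave Cspg4 0.050, and the ratio of mean FPKM gave Pdgfra -0.014 and Olig2 -0.075. In compound against control, Olig2 became 2.52e-05 with a pseudocount of 0.1, 0.018 with quantile normalization and 0.0098 with median scaling. In compound against 5XFAD, Bcas1 became -0.024 with quantile normalization and -0.021 with the replicate block. In compound against Hdac1 cKO, quantile normalization gave Vcan -0.017 and the ratio of means Olig2 0.030. The pseudocount of 0.1 gave Olig2 -0.0051 in the interaction, and quantile normalization Pdgfra -0.0012 with 5XFAD averaged. Same-number r ran from -0.113 to 0.094 over 27 hippocampal pairs (median 0.025), and different-number r from -0.141 to 0.115 over 122 (median -0.003). In nuclei r ran from -0.042 to 0.048 over 3 same-number pairs and from -0.065 to 0.056 over 9 different-number pairs. The hippocampal ranges gave no clear sign that replicate numbers pair the samples, and 3 nuclei pairs are too few to decide. In a pairwise fit, a sample whose number occurs in only 1 of the groups drops out of the difference under the block, as Hdac1 cKO nuclei 2 did. With the replicate block in nuclei, Cspg4 therefore became 0.089, Olig2 0.14 and Gpr17 0.11, as without that library. No member gained or lost a call under the block in any comparison.

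Genes called over the whole table rose from 425 to 641 with a pseudocount of 0.1 and to 688 with the ratio of means in 5XFAD against control, and from 184 to 325 and 341 in compound against 5XFAD. The smaller pseudocount also gave 384 instead of 191 for averaged Hdac1 loss and 582 instead of 320 for averaged 5XFAD, where it added a call of 1 member, Enpp6. Genes at an adjusted p under 0.05 numbered 22 in Hdac1 cKO against control, and 9 without a filter, 8 with plain limma, 0 with the block and 1 in one fit of all groups. They went from 102 to 48 with the block in 5XFAD against control, from 95 to 62 with plain limma, 34 with the block and 207 in one fit in compound against control, from 1 to 3 in one fit in compound against 5XFAD, and from 2 to 5 with the block in nuclei. The causes were not tested.

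Leaving out 1 sample at a time gave ranges that crossed 0 without a call. In Hdac1 cKO against control these were -0.087 to 0.077 for Olig1, -0.14 to 0.12 for Pdgfra, -0.20 to 0.21 for Olig2 and -0.19 to 0.086 for Cspg4. In 5XFAD against control they were -0.17 to 0.091 for Pdgfra and -0.23 to 0.18 for Olig2. In compound against control they were -0.21 to 0.20 for Olig2, -0.10 to 0.16 for Pdgfra and -0.25 to 0.080 for Cspg4. In compound against 5XFAD they were -0.030 to 0.13 for Pdgfra, -0.26 to 0.092 for Enpp6, -0.10 to 0.17 for Olig2, -0.12 to 0.11 for Bcas1 and -0.0077 to 0.091 for Olig1. In compound against Hdac1 cKO they were -0.14 to 0.14 for Olig2, -0.049 to 0.12 for Vcan, -0.022 to 0.11 for Pdgfra, -0.16 to 0.11 for Cspg4 and -0.028 to 0.17 for Sox10. In the interaction they were -0.19 to 0.22 for Olig2, -0.035 to 0.14 for Olig1, -0.038 to 0.25 for Gpr17 and -0.048 to 0.22 for Pdgfra. For averaged Hdac1 loss they were -0.018 to 0.064 for Olig1, -0.045 to 0.054 for Vcan, -0.087 to 0.12 for Olig2, -0.036 to 0.10 for Pdgfra and -0.018 to 0.083 for Sox10. For averaged 5XFAD they were -0.12 to 0.081 for Olig2, -0.066 to 0.067 for Pdgfra and -0.0070 to 0.16 for Cspg4. In nuclei they were -0.024 to 0.43 for Enpp6, -0.38 to 0.095 for Cspg4, -0.27 to 0.14 for Olig2 and -0.52 to 0.28 for Gpr17. The number of members called ran from 0 to 1 in compound against control (Gpr17), in compound against Hdac1 cKO (Enpp6) and in nuclei (Olig1, without Hdac1 cKO nuclei 3). Genes at an adjusted p under 0.05 ran from 2 without control mouse 3 to 290 without control mouse 1 in Hdac1 cKO against control, from 41 without control mouse 4 to 105 in compound against control, from 1 to 4 without compound mouse 5 in compound against 5XFAD, from 0 to 1 in the interaction, from 2 without control mouse 2 to 98 without control mouse 1 for averaged Hdac1 loss, and from 2 to 9 without control nuclei 4 in nuclei. Low levels of Cspg4, Vcan, Gpr17 and Enpp6 in hippocampus and 7 nuclei libraries limit what could be detected.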
